A study of Mus musculus with 2 samples.

Results

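Cells at an early step of bone formation, before the gene for osteocalcin is strongly used, were picked from 2 libraries of mouse periosteal cells by their own transcript counts, and numbered 79 of 9169 cells kept, 22 of 6276 in library 1 and 57 of 2893 in library 2. A kept cell had at least 500 genes, at least 500 unique molecular identifiers (UMIs, each standing for 1 captured transcript) and at most 10% mitochondrial UMIs, which left 9169 of 13591 barcodes. An osteogenic progenitor was a kept cell with a UMI of at least 3 of the 6 early genes Sp7, Alpl, Mmp13, Wif1, Tnc and Lifr, and with fewer than 2 of the 4 osteoblast genes Bglap2, Ibsp, Ifitm5 and Dmp1 at 2 UMIs or more. It also held fewer than 5 Col2a1, fewer than 20 Col10a1 and fewer than 2 Tnmd UMIs, and no Adipoq or Ptprc UMI. This set aside cells with any Adipoq or Ptprc UMI, but cells with cartilage or tendon transcripts only at or above those counts. A UMI of the cartilage gene Col10a1 remained in 10 of the 79 progenitors (12.7%). The share of progenitors was 0.351% in library 1 (95% Clopper-Pearson interval 0.22 to 0.53) and 1.97% in library 2 (1.5 to 2.55), and these intervals, which cover counting error only, did not overlap.

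The libraries were replicates 1 and 2 of a single condition: 4 week old WT mice of strain C57BL6, whose femurs and tibias were stripped of soft tissue before the periosteum was peeled off and digested with collagenase. Cells negative for CD45, CD31, Ter-119 and the dead-cell dye DAPI were sorted and measured by droplet-based 3' single-cell RNA sequencing. Nothing in the labels says whether the replicates came from separate animals, so the p-values below measure only the spread between these libraries, which may be technical. No condition was compared, and each comparison is between classes of cells within the same pair of libraries.

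Bone-forming cells pass through stages. RUNX2 and then Osterix, the product of Sp7, commit a mesenchymal cell to the osteoblast fate. Committed cells make tissue-nonspecific alkaline phosphatase (Alpl) and a collagen I matrix, and mature osteoblasts add bone sialoprotein (Ibsp) and osteocalcin (Bglap and Bglap2), while Dmp1 marks the passage to osteocytes. Of the other early genes, Mmp13 encodes a collagenase, Wif1 a secreted inhibitor of Wnt signaling, Tnc the matrix protein tenascin-C, and Lifr the receptor for leukemia inhibitory factor. In the periosteum such cells lie in the inner, bone-facing layer.

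The 150 bases before the start sites of Mmp13, Spp1 and Bglap are shown because these genes stand for the early, the variable and the late transcripts described below, and because each holds the 6-letter core of the motif that RUNX proteins recognize. Capitals mark this core, ACCACA, which is TGTGGT on the opposite strand. Spp1 had another start site, not shown, without the core on either strand in the 250 bases before it. The sequences are from RefSeq on GRCm38 (mm10), written 5′ to 3′ along the gene, and span chr9:7272364-7272513 on the plus strand for Mmp13, chr5:104434961-104435110 on the plus strand for Spp1 and chr3:88384467-88384616 on the minus strand for Bglap.
Mmp13: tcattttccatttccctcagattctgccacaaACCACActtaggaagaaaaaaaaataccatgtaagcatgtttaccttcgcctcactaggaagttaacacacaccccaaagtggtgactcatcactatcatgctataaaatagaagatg
Spp1: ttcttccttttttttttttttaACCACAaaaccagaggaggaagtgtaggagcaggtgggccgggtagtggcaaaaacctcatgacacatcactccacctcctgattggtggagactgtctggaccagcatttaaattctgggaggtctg
Bglap: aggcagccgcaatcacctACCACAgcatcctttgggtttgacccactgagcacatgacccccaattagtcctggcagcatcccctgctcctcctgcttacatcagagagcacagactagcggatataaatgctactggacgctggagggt
Searched on both strands over the 250 bases before each start, TGTGGT or ACCACA was found in 4614 of 32851 promoters (14.0%). Among the early genes that had a promoter entry it was found before Mmp13 only, and a match is a description of letters, not a binding site.

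Before the results, 4 properties of the libraries need stating. Progenitors were shallower than mature osteoblasts, defined as kept cells with at least 3 of the 4 osteoblast genes at 2 UMIs or more: the median was 6076.5 UMIs per progenitor in library 1 and 5354 in library 2, against 29821.5 and 19430.5 per mature osteoblast, of which there were 80 and 108. The limit on osteoblast genes is met more easily by shallow cells. Hematopoietic transcripts were unequal: 14 of 22 progenitors (63.6%) in library 1 and 4 of 57 (7.02%) in library 2 held at least 2 UMIs of each of 2 or more blood cell genes, and the same was true of 98.8% and 10.2% of mature osteoblasts. A single progenitor of library 1 held 1481 of the 1601 Hbb-bs (hemoglobin beta) UMIs found in that library's progenitors. The reporter EGFP, which a WT mouse should lack, was counted in library 2 alone, with 68 UMIs in 4 progenitors and 935 in 27 mature osteoblasts, and no library 1 cell in these classes held any. No doublet caller was run, and 8 barcodes were shared between the libraries, none of them a progenitor's.

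The early genes chose the cells, so their levels are given as a description, as counts per 1000000 UMIs (CPM) in the summed progenitors of each library. Mmp13 (chr9:7272514-7283331) stood at 5450 CPM in library 1 and 3470 in library 2, against 358 and 115 in mature osteoblasts. Tnc (chr4:63959785-64047015) stood at 1910 and 1670 CPM, against 95.7 and 129. Alpl (chr4:137741733-137796384) was at 797 and 951 CPM, against 535 and 405. By CPM these 3 genes were higher than in mature osteoblasts in both libraries, most widely Mmp13 and Tnc. In library 1 the top 3 progenitors gave 58.9% of the Alpl UMIs. Sp7 (chr15:102356606-102367182), at 109 and 118 CPM, was below the 186 and 130 CPM of mature osteoblasts. Wif1 (chr10:121033960-121100650) was at 399 and 172 CPM against 120 and 116, and Lifr (chr15:7090614-7197489) at 289 and 245 against 213 and 134. In Adipoq stromal cells Lifr was higher than in progenitors in both libraries, at 359 and 331 CPM. Tnc, at 1110 and 2180 CPM, and Sp7, at 50.1 and 165, were higher there in library 2 only. Mmp13, Alpl and Wif1 were lower there in both libraries. In chondrocytes, defined below, Mmp13 stood at 1810 and 538 CPM, with a UMI in 67.6% and 35.4% of cells. A Mmp13 UMI is therefore not particular to progenitors. Wif1 in chondrocytes was below its progenitor level in library 1 and above it in library 2, at 185 CPM. Mmp13, Alpl, Tnc, Sp7 and Lifr were lower in chondrocytes than in progenitors in both libraries. In mature osteoblasts of library 1 a single cell gave 80.9% of the 864 Mmp13 UMIs, and 15 of 80 cells held any. Fitted fold changes lie 0.62 log2 units below CPM ratios against mature osteoblasts and 0.42 above them against Adipoq stromal cells. Small CPM differences, such as those of Alpl and Lifr in library 1, may therefore not remain after normalization.

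Within the class the early genes were uneven. Mmp13 had a UMI in 21 of 22 progenitors of library 1 and 37 of 57 of library 2, with medians of 13 and 2 UMIs and highest counts of 305 and 525. Tnc was found in 19 and 50 progenitors, Alpl in 17 and 49, Lifr in 17 and 38, Sp7 in 15 and 27, and Wif1 in 12 and 24. Of the 79 progenitors, 27 held exactly 3 of the 6 early genes, 23 held 4, 21 held 5 and 8 held all 6. The progenitors of library 2 rested more often on 3 genes, 24 of 57, than did those of library 1, 3 of 22. Progenitors were chosen for these genes, so their shares are no check against background. In B cells (at least 2 Cd79a UMIs), with median depths of 4071 and 4135 UMIs, a Mmp13 UMI was found in 1.41% and 1.2% and an Alpl UMI in 7.64% and 6.45%.

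**Figure D1:**
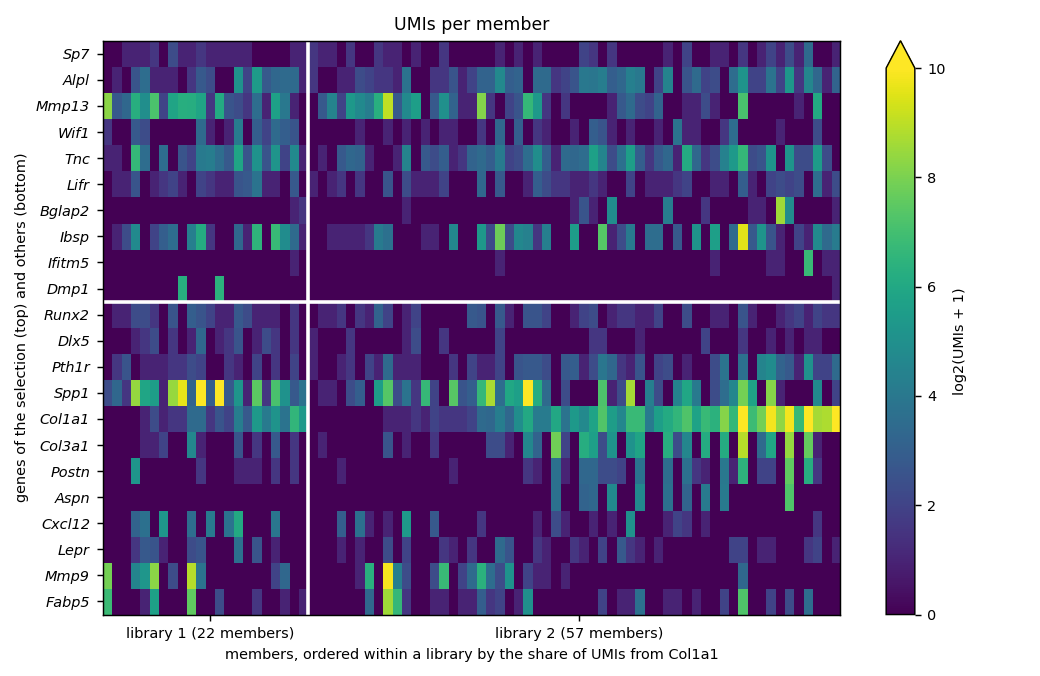
Heat map of log2(UMIs + 1) for 22 genes (rows, the 10 early and osteoblast genes of the selection above the white line) in each of the 79 progenitors (columns), split by library and ordered within a library by the share of UMIs from Col1a1. Col1a1 and Col3a1 are strong at the right of library 2, Mmp9 and Fabp5 are bright in a few columns, and Bglap2, Ifitm5 and Dmp1 are dark in almost all.

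The 4 osteoblast genes were limited by the selection, so their scarcity is no check of the label. No Bglap2 UMI was found in 65 of 79 (82.3%), and 7 held 2 or more. Bglap2 (chr3:88377736-88378699) and its near-identical neighbor Bglap (chr3:88383501-88384464) can share reads, so their split is uncertain. Ibsp was the osteoblast gene most often present, at 2 UMIs or more in 43 progenitors, with a highest count of 754. The selection allowed 1 osteoblast gene at any level, and 53 of 79 progenitors used that allowance.

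Some progenitors went against the label, among them the 7 with 2 or more Bglap2 UMIs. Some of these, all in library 2, held 18, 27 and 28 Bglap2 UMIs. The strongest cases follow. A single progenitor of library 2 held 384 Bglap2 and 882 Bglap UMIs, 86.1% of the Bglap UMIs of its class in that library. Another held 108 Ifitm5 UMIs, an osteoblast membrane protein gene, together with 2729 Col1a1 UMIs. In library 1, 2 progenitors carried Dmp1, at up to 84 UMIs, and one of them also carried 3202 Spp1 UMIs. No UMI of any of the 4 osteoblast genes was found in 16 of 79 progenitors (20.3%).

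At the threshold, progenitors with exactly 3 early genes (3 and 24 cells) and the cells just outside with exactly 2 (12 and 38 cells, the other limits being equal) compared as follows. Runx2 was at 79.3 CPM in library 1 and 229 in library 2 just inside, and at 10.5 and 68.4 CPM just outside. The library 1 value just inside rests on 1 UMI in 3 cells and measures no level. Col1a1 was at 3170 and 34000 CPM inside and 1740 and 14000 outside, and Spp1 at 1510 and 20000 inside and 5820 and 17300 outside. Median depths were 2445 and 3886.5 UMIs inside and 15593 and 6699.5 outside, so the cells just outside were the deeper ones.

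Genes that the selection did not use were then read as markers of osteogenic commitment. Runx2, the master transcription factor of the lineage, had 49 UMIs in 17 of 22 progenitors of library 1 and 97 in 37 of 57 of library 2, which is 268 CPM (95% Poisson interval 198 to 354) and 220 CPM (179 to 269). Mature osteoblasts stood at 143 and 109 CPM, Adipoq stromal cells at 197 and 132, chondrocytes at 112 and 71.1, fibroblasts at 6.01 and 3.86, and B cells at 2.54 and 2.48. When every cell was thinned to 800 UMIs, which left out no progenitor and 1 and 2 B cells, a Runx2 UMI remained in 24.3% and 22.6% of progenitors and in 0.125% and 0.102% of B cells. Runx2 was thus above background in both libraries, and within each library the progenitors had the highest level of the 6 classes. The difference from Adipoq stromal cells, of which library 2 held only 6, did not pass the test described below (log2 fold change 0.84, edgeR adjusted p 0.542).

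Other commitment genes varied in strength. Dlx5, a homeobox activator of osteoblast genes, was at 197 and 61.3 CPM in progenitors and 59.2 and 42.9 in mature osteoblasts. Cdh11, osteoblast cadherin, was at 655 and 322 CPM against 211 and 141, and Pth1r, the parathyroid hormone receptor, at 175 and 570 against 497 and 526. None of these differences from mature osteoblasts passed the test described below (edgeR adjusted p 0.657 for Dlx5, 0.593 for Cdh11, 0.526 for Pth1r and 0.763 for Runx2).

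Spp1 and Col1a1 differed widely between the libraries within the progenitors. Spp1, the matrix phosphoprotein osteopontin, was at 34100 CPM in library 1 and 11300 in library 2, with UMIs in all 22 and in 41 progenitors, and a single cell gave 51.3% and 47.9% of the sum. In B cells 17.8% and 13.4% held a Spp1 UMI, at 114 and 301 CPM, so a Spp1 UMI alone does not mark expression. Col1a1, the main bone collagen, was at 1650 CPM in library 1 and 23400 in library 2, against 100000 and 96800 in mature osteoblasts. No progenitor of library 1 and 18 of 57 of library 2 held 100 or more Col1a1 UMIs. Neither gene passed the test against mature osteoblasts (Spp1 log2 fold change 0.32 ± 1.06, adjusted p 0.932; Col1a1 -3.52 ± 1.71, adjusted p 0.374; SE, n = 2 libraries per class, edgeR). With the library as a block Col1a1 passed it, at an edgeR adjusted p of 0.0426.

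**Figure D2:**
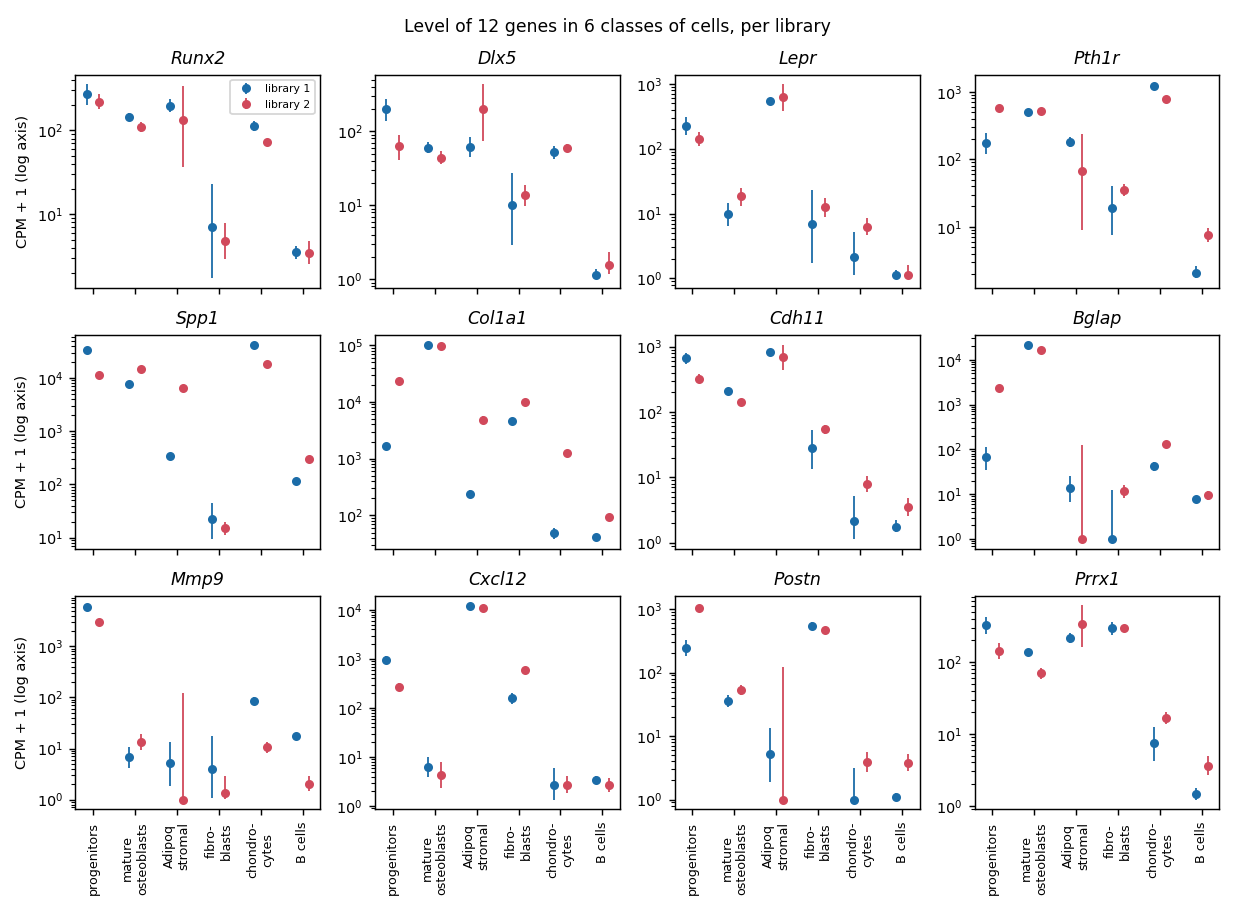
Level of 12 genes outside the selection (panels, CPM + 1 on log axes) in 6 classes of cells, 1 point per library with 95% Poisson intervals of the summed UMIs. Runx2 in progenitors, at 268 and 220 CPM, sits above fibroblasts and B cells in both libraries, Col1a1 in progenitors spans 1650 to 23400 CPM, and Mmp9 is high in progenitors alone among the classes shown.

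Progenitors were not uniform, and 3 genes with strong but patchy counts were used to describe how, with no test since the groups were drawn from the same counts. Mmp9, the gene of gelatinase B, had 10 or more UMIs in 14 progenitors, 6 in library 1 and 8 in library 2. Cxcl12, a chemokine of the marrow niche, had 2 or more in 18, and Postn, the matrix protein periostin, had 5 or more in 11, 10 of them in library 2. Mmp9 and Cxcl12 met in 4 progenitors, Postn and Cxcl12 in 3, and Postn and Mmp9 in 1. The remaining 43 progenitors (54.4%) met none of these limits.

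The 14 progenitors with many Mmp9 UMIs stood at 17200 CPM of Mmp9 and 11300 CPM of Mmp13. They also held Fabp5, a fatty acid binding protein, at 6220 CPM and the ligand Wnt4 at 560, while Col1a1 was at 436 CPM and did not exceed 10 UMIs in any of them. Fabp5 had a median of 4.5 UMIs per cell and a highest count of 383, and Wnt4 a median of 1.5 and a highest count of 36. Runx2 had a UMI in 10 of the 14. Mmp9 is also a classical osteoclast gene. Of the other osteoclast genes, Acp5 was at 7.27 CPM (1 UMI), Ctsk at 349 CPM in 10 of 14 cells and Csf1r, a receptor of monocytes and osteoclasts, at 0. Counts were concentrated: the top progenitor gave 42.6% of the Mmp9 sum in library 1 (467 of 1097 UMIs) and 71.4% in library 2 (943 of 1320), and the top 3 gave 92.0% and 86.0%.

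The 18 progenitors with Cxcl12 stood at 2000 CPM of that gene, 1850 of the IGF-binding protein gene Igfbp5, 1370 of the collagen gene Col8a1 and 250 of the leptin receptor gene Lepr, and Runx2 had a UMI in 14 of them. The 11 with Postn stood at 2780 CPM of Postn and 1440 of the small leucine-rich proteoglycan gene Aspn, and at 32700 of Col1a1 and 9560 of the fibrillar collagen gene Col3a1. Their medians were 109 Col1a1 and 9 Aspn UMIs per cell, with highest counts of 2729 and 151. The 43 others held 15.4 CPM of Cxcl12, 116 of Postn and 100 of Mmp9, with Col1a1 at 17000 and Spp1 at 31000, although 3 cells gave 79.6% of these Spp1 UMIs and the median was 6 per cell. They also held the noncoding RNA Gm26917 at 10200 CPM, against 276, 229 and 47.7 in the groups with Mmp9, Cxcl12 and Postn. By summed counts Col3a1 and Aspn thus ran with Postn, and Mmp13 and Fabp5 ran with Mmp9. A few cells carried much of the Aspn and Fabp5 counts. Median depths were 8389 UMIs in the progenitors with Mmp9, 7334.5 with Cxcl12, 12544 with Postn and 4017 in the others.

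**Figure D3:**
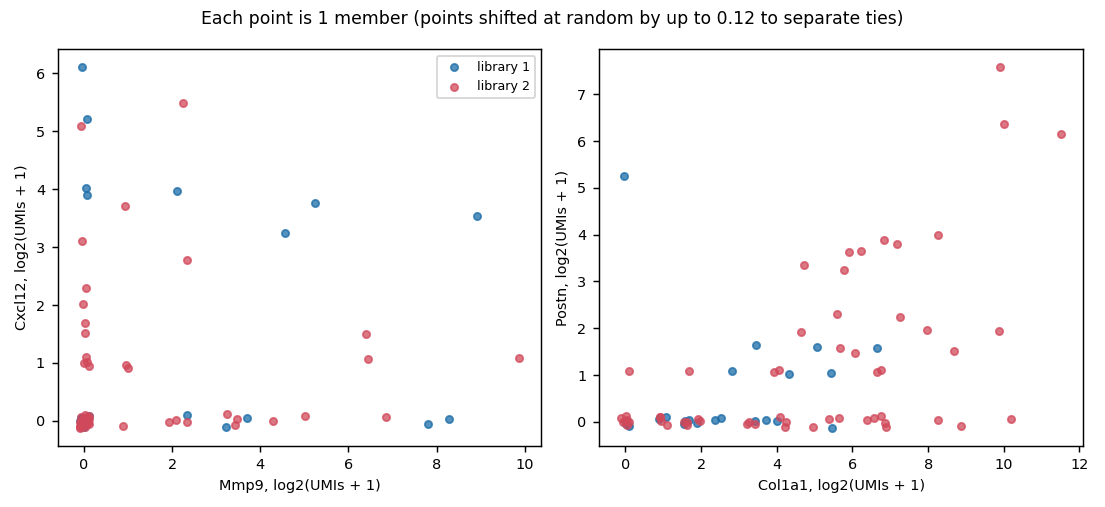
Each point is 1 of the 79 progenitors, colored by library, with Cxcl12 against Mmp9 on the left and Postn against Col1a1 on the right, all as log2(UMIs + 1). Of the 14 progenitors with 10 or more Mmp9 UMIs, 6 hold a Cxcl12 UMI, and 10 of the 11 progenitors with 5 or more Postn UMIs are from library 2.

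Lists of genes that mark other cells were read in the same sums. The 17 hematopoietic genes summed to 12600 CPM in library 1 and 418 in library 2, led by Hbb-bs at 8740 and 182 CPM, against 4440 and 240 in mature osteoblasts, and 5 and 7 of the 17 were at 0 in progenitors. The 16 marrow stromal niche genes summed to 3460 and 1430 CPM in progenitors against 165 and 169 in mature osteoblasts. They were led in progenitors by Cxcl12 in library 1 and the transcription factor gene Ebf1 in library 2, with 2 at 0 in each library. In Adipoq stromal cells they summed to 28600 and 29600 CPM. Adipoq, a defining gene of the marrow stroma, was 0 by selection. Endothelial genes summed to 0 and 11.3 CPM, with 6 and 4 of 6 at 0.

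Osteoclast genes summed to 6160 and 3340 CPM, of which Mmp9 gave 5990 and 3000. Mural genes, led by Notch3 and Acta2, summed to 289 and 334 CPM, beside 565 and 331 in Adipoq stromal cells, against 14.5 and 18.9 in mature osteoblasts. Chondrocyte genes summed to 131 and 867 CPM against 2320 and 1990, tenocyte genes to 43.7 and 520 against 101 and 197, and skeletal muscle genes to 60.1 and 22.7 against 14.1 and 256. The selection capped 2 of the chondrocyte genes, 1 tenocyte gene and 1 hematopoietic gene in progenitors and not in mature osteoblasts, so these sums are not matched. Niche and mural transcripts moved with the comparison to mature osteoblasts in both libraries, and their part in the results that follow was not tested beyond leaving out the progenitors that carried niche or hematopoietic genes.

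Progenitors were first compared with mature osteoblasts, to ask which genes set the stage before osteocalcin apart. The summed UMIs of 5 classes in both libraries were fitted together and tested with the quasi-likelihood test of edgeR, p-values being adjusted by Benjamini-Hochberg over all genes, and the 15 selection genes were left out of every count. Of 10754 genes, 157 were higher in progenitors (1.46%) and 48 were lower (0.446%) at an adjusted p under 0.05, and the median log2 fold change of all genes was 0.0. Fitted fold changes lie 0.62 log2 units below the ratio of the CPM values because of the normalization. With the library as a block the counts were 308 and 204, without the progenitors of library 1 they were 48 and 0, and without those of library 2 they were 91 and 35. Leaving out progenitors with hematopoietic genes gave 78 and 9, and leaving out those with 10 or more Mmp9 UMIs gave 85 and 14.

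Gm26917, whose reads can come from ribosomal RNA and which is used here as a sign of RNA quality, was also called higher, at 2940 and 4930 CPM against 78.3 and 126 (4.65 ± 0.584, edgeR adjusted p 0.00518). It lay in few cells: 2 progenitors of library 1 and 5 of library 2 with 100 or more of its UMIs held 500 of 538 and 1978 of 2172, and their median depths were 1679 and 1983 UMIs. Without these 7 progenitors Gm26917 lost the call (1.13, edgeR adjusted p 0.348), and 147 genes were higher and 40 lower than in mature osteoblasts, of which 146 and 37 were among the 157 and 48.

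The collagen IV genes Col4a1 and Col4a2 were among the named genes most raised in progenitors, and no list of basement membrane genes was tested. Col4a1 (chr8:11198423-11312826) was at 475 and 225 CPM in progenitors and at 0 and 1.89 in mature osteoblasts, a log2 fold change of 7.83 ± 0.976 (SE, n = 2 libraries; edgeR adjusted p 0.00518). Its neighbor Col4a2 (chr8:11312805-11449287), on the opposite strand, was at 235 and 113 CPM against 0 and 0.472, a ratio of 676 with a counting interval of 118 to 27000 since a single UMI stood on the osteoblast side. Col4a1 was found in 11 of 22 and 20 of 57 progenitors, and its top cell gave 25.3% and 21.2% of the sum, so the difference did not rest on a single cell. Col8a1, a short-chain collagen gene, was at 1030 and 138 CPM against 0 and 1.89 (8.53 ± 1.28, edgeR adjusted p 0.0106).

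The remaining leading genes encode enzymes, receptors and secreted proteins. Pi15 (chr1:17601901-17630939), which encodes a secreted peptidase inhibitor, was at 49.2 and 45.4 CPM against no UMI, at least 70.3-fold higher, but in library 1 its 9 UMIs lay in 2 progenitors. Aldh1a2 (chr9:71215789-71296243), a retinoic acid synthesis enzyme, was at 60.1 and 31.8 CPM against no UMI, at least 60.6-fold higher. Lpl, lipoprotein lipase, was at 470 and 166 CPM against 0.828 and 1.42, although 1 cell gave 61.6% of the sum in library 1. These genes were found in a minority of progenitors each, Lpl in 7 and 16, Aldh1a2 in 5 and 5.

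Fmo1, a monooxygenase, and St8sia2, a sialyltransferase, had no UMI in mature osteoblasts and were higher in progenitors by at least 33.9-fold for Fmo1 and at least 31.5-fold for St8sia2. Sstr2, a somatostatin receptor, was at 92.9 and 56.7 CPM against 0.414 and 0, a ratio of 305 (51.9 to 12300 from counting). Mmp9 was at 5990 and 3000 CPM against 5.8 and 12.7, a log2 fold change of 8.25 ± 1.17 (edgeR adjusted p 0.00699). The value was 2.95 and lost the call (adjusted p 0.202) when the 14 progenitors with 10 or more Mmp9 UMIs were left out. Of 58 genes named in this comparison and past the threshold, 10 stayed past it in every alternative that gave them a value: Col4a2, Col8a1, Col4a1, Lpl, Pappa, Pdgfrb and Cxcl12 in all 18, Pi15 and Aldh1a2 in 17 and Fmo1 in 16. The counts thinned to 800 UMIs gave no value for Pi15, Aldh1a2 and Fmo1, and the fit to the compared classes alone gave none for Fmo1.

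Genes lower in progenitors included late osteoblast genes. Gal, the gene of the neuropeptide galanin, had no UMI in 623730 progenitor UMIs and stood at 110 and 117 CPM in mature osteoblasts, at least 23.6-fold lower in progenitors. Car3, carbonic anhydrase 3, was at 81.9 and 157 CPM against 1600 and 1450 (-4.24 ± 0.716, edgeR adjusted p 0.0117). Phex, an endopeptidase that controls phosphate and marks late osteoblasts and osteocytes, was at 10.9 and 9.08 CPM against 227 and 78.3 (-4.52 ± 0.752, edgeR adjusted p 0.0117). All 3 had lower levels in progenitors in both libraries, and without the progenitors of library 1 none of the 3 was past the threshold (adjusted p 0.0862, 0.134 and 0.118).

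Of the other named genes that fell, Grrp1 was at 0 and 2.27 CPM against 63.8 and 58.5, a ratio of 38.2 (6.81 to 1520 from counting), and the chromatin organizer gene Satb1 at 5.46 and 6.81 against 74.1 and 85.4. Gnai1, a G protein subunit gene, was at 10.9 and 15.9 CPM against 166 and 121. Mlip was at 0 and 13.6 CPM against 90.7 and 79.3, and the hepatic lipase gene Lipc at 0 and 11.3 against 101 and 76. Pgbd5 had no UMI against 34 and 21.7 CPM, and the dopamine receptor gene Drd4 was at 0 and 2.27 CPM against 20.3 and 28.8, a ratio of 15.1 (2.66 to 603 from counting). In each of these genes both progenitor values lay below both osteoblast values.

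**Figure D4:**
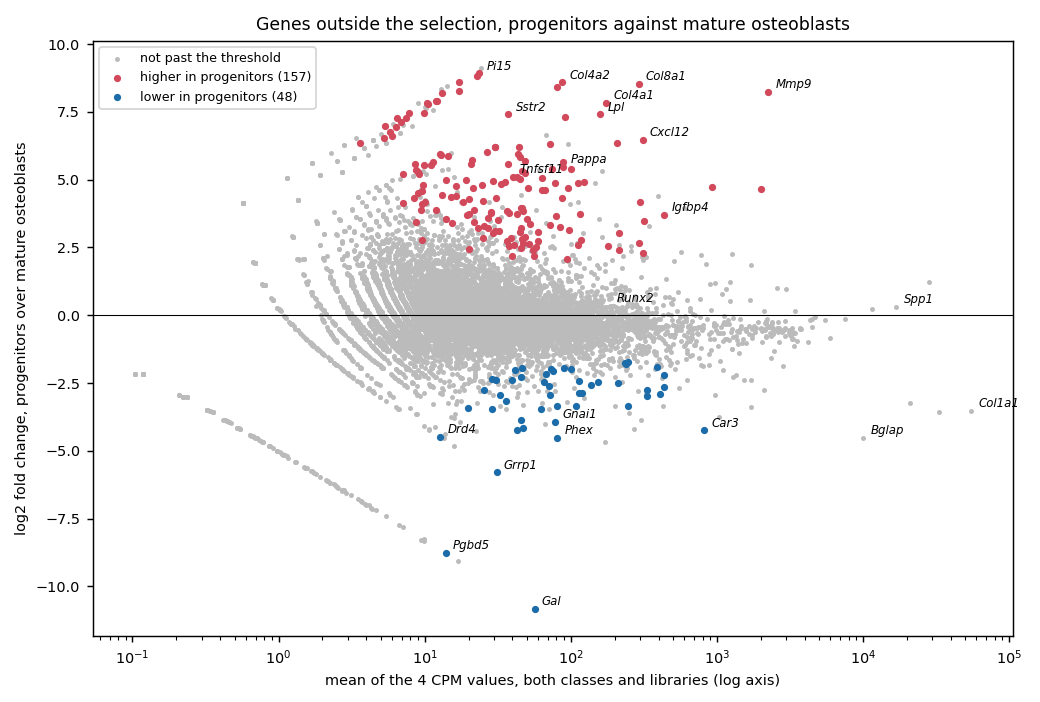
Log2 fold change of progenitors over mature osteoblasts (vertical axis) against the mean of the 4 CPM values (log axis) for the 10754 genes outside the selection, with the 157 higher genes in red and the 48 lower genes in blue. Straight tails at the edges are genes with no UMI in 1 class, where the fitted value is no measure of size, and Runx2, Spp1, Col1a1 and Bglap are gray.

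The named lists were then read by role. Of 17 osteogenic transcription factors tested, 1 was higher in progenitors and 1 lower, with a median log2 fold change of -0.49, beside 1.46% and 0.446% of all genes. Snai2, an early mesenchymal repressor, was at 76.5 and 63.5 CPM against 10.8 and 8.97 (2.20 ± 0.426, edgeR adjusted p 0.0284). Dlx3, a homeobox factor of later osteoblasts, was at 5.46 and 4.54 CPM against 38.5 and 31.1, which is 3 UMIs in all against 159, a ratio of 7.29 with a counting interval of 2.45 to 35.7. Runx2 was not called in either direction.

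Matrix and mineral genes were called in both directions. Among 14 mineralization and late osteoblast genes outside the selection, Phex, Car3 and Sgms2, a sphingomyelin synthase gene, were lower and Slc20a2, a phosphate transporter gene, was higher, with a median of -2.71. Slc20a2 was at 164 and 86.2 CPM against 3.73 and 0.944 (5.05 ± 0.654, edgeR adjusted p 0.00518), and Sgms2 at 92.9 and 177 against 876 and 501. Osteocalcin, Bglap, was at 65.5 and 2320 CPM against 21300 and 16800. Since Bglap can share reads with Bglap2, which chose both classes, these levels are a description with no test. Among 22 genes of collagen modification and secretion, Lox, P4ha1 and Sec23a were lower and P4ha3 was higher, with a median of -1.76. Lox, the collagen cross-linking enzyme, was at 131 and 204 CPM against 888 and 519, and P4ha1, a collagen prolyl hydroxylase, at 32.8 and 93 against 267 and 224. Of 22 bone collagens and matrix genes, only Ogn (osteoglycin) was called, at 131 and 207 CPM against 2.48 and 8.49, with a median of -1.05.

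Of the IGF pathway, 3 of 11 genes passed the test, all higher. All 11 IGF pathway genes tested had positive log2 fold changes, with a median of 3.71, and those past the test were Pappa, Igfbp3 and Igfbp4. Pappa, the protease that cleaves IGFBP4 and so frees IGF, was at 257 and 95.3 CPM against 2.48 and 2.36 (5.48 ± 0.671, edgeR adjusted p 0.00518), and its UMIs lay in 11 and 21 progenitors. Igfbp4 was at 1090 and 579 CPM against 24.4 and 55.7 in 16 and 40 progenitors (3.71 ± 0.786, edgeR adjusted p 0.0418). Igfbp4 lost the call without either library (adjusted p 0.229 without library 1 and 0.0721 without library 2), whereas Pappa kept it. Against Adipoq stromal cells 4 of 11 genes lay above 0 (median -0.73) and none was called, and against fibroblasts 2 of 11 did (median -0.63) and Pappa was called higher. Over all genes 0.139% were called higher and 0.0837% lower than in the stroma, and 1.63% and 0.995% than in fibroblasts. At the stromal shares, no call among 11 genes says little about this list. The 12 IGF genes summed to 4650 and 2730 CPM in progenitors, 14500 and 16400 in the stroma and 7700 and 11200 in fibroblasts. Igf1 itself, at 273 and 161 CPM against 0 and 14.6 in mature osteoblasts, was not called (edgeR adjusted p 0.147).

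Among 8 factors that act on osteoclasts, Cxcl12, Tnfsf11 and Csf1 were higher and none was lower, with a median of 1.86. Cxcl12 was at 967 and 270 CPM against 5.38 and 3.3 (6.47 ± 0.897, edgeR adjusted p 0.00742). Tnfsf11, which encodes RANKL, the ligand that drives osteoclast formation, was at 126 and 31.8 CPM against 1.24 and 1.42, and Csf1, the macrophage growth factor, at 208 and 109 against 7.87 and 12.7. Every Tnfsf11 UMI of the progenitors lay in cells with an osteoblast gene at 2 UMIs or more. The 26 others held 0 in 131575 UMIs, where 3 counts are 22.8 CPM. That limit lies below the level over all progenitors in each library and above that of mature osteoblasts, so a level lower than in mature osteoblasts was not detectable.

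Receptor and growth factor genes were read against the 1.46% of all genes called higher and 0.446% called lower. Pdgfrb, a PDGF receptor gene of perivascular and mesenchymal cells, was at 634 and 195 CPM against 2.48 and 3.78 (6.35 ± 0.787, edgeR adjusted p 0.00518) and was the only 1 of 14 FGF and PDGF genes called. In Adipoq stromal cells Pdgfrb was at 480 and 397 CPM. Of 21 Wnt ligands and receptors only Rspo3, a Wnt-enhancing ligand, was called, at 257 and 120 CPM against 2.48 and 6.61. In the BMP and TGF-beta list of 29 genes, Bmp6, Ltbp2 and Tgfbr3 were higher and Bambi and Bmp3 lower, with a median of -0.07, or 0.23 when genes without a UMI in 1 class were set at their bound. Ltbp2 rested on 11 UMIs against 1, a ratio of 80.0 (11.6 to 3440 from counting), none of them in the 26 progenitors without an osteoblast gene at 2 UMIs. Bambi, a pseudoreceptor that dampens BMP and TGF-beta signals, was at 109 and 134 CPM against 498 and 591 (-2.77 ± 0.451, edgeR adjusted p 0.0117). No gene was called among 10 Wnt antagonists, 6 Wnt targets, 12 hedgehog and PTH genes and 9 LIF and oncostatin genes.

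Proteases, matricellular proteins and stem cell markers followed. Of 20 matrix proteases and inhibitors, Mmp9 and Mmp11 were higher and Mmp16 was lower, and of 17 matricellular genes Ccn5, Smoc1 and Matn2 were higher and Thbs1 was lower. Smoc1 rested on 10 UMIs against 1, a ratio of 72.7 (10.3 to 3150 from counting), none of them in the 26 progenitors without an osteoblast gene at 2 UMIs. Ccn5 was at 120 and 175 CPM against 0.828 and 3.78, and Mmp16, a membrane-bound protease gene, at 21.8 and 20.4 against 181 and 102. In the list of 21 periosteal and skeletal stem cell genes, Pdgfrb, Acta2, Thy1 and Mcam were higher and none was lower, with a median of 0.62. Thy1 was at 32.8 and 63.5 CPM against 0.828 and 1.42 (4.81 ± 0.639, edgeR adjusted p 0.00673), but all 6 of its UMIs in library 1 came from 1 progenitor. Mcam was at 43.7 and 20.4 CPM against 0.828 and 0.472, a ratio of 41.2 (11.9 to 219 from counting), and Acta2 at 38.2 and 134 against 0.414 and 1.42.

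Of 15 marrow stromal niche genes tested, Lpl, Cxcl12, Gas6, Ebf3, Lepr and Ebf1 were higher than in mature osteoblasts and none was lower, with a median of 3.13. Against Adipoq stromal cells, which some of these genes chose, all 15 had negative log2 fold changes (median -2.86). Lepr was at 224 and 141 CPM against 8.7 and 17.5, with a UMI in 34 of 79 progenitors. Of the 2 mural genes called, Notch3 was at 147 and 29.5 CPM against 0.828 and 0.472, a ratio of 96.9 (30.9 to 490 from counting), and Acta2 is given above. Among 16 immediate early genes, which respond to tissue dissociation, all 16 had negative log2 fold changes (median -1.63) and Egr1, at 240 and 218 CPM against 619 and 496, passed the test. No gene of the 20 S phase and 19 G2/M phase genes tested was called, although their medians were 1.22 and 0.97. No gene of 14 glycolysis genes was called (median -0.05), and of the 3 osteocyte genes tested Phex alone was. Mki67, a proliferation marker, had a UMI in 13 of 79 progenitors.

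To see whether these differences formed a gradient, all cells with at least 3 early genes and the same exclusions were ordered by how many of the 4 osteoblast genes they held at 2 UMIs or more, from 0 to 4. Progenitors are the first 2 steps, with 6 and 16 cells in library 1 and 20 and 37 in library 2, and the later steps held 24, 29 and 29 cells and 54, 69 and 17 cells. The median depth was greater at the last step than at the first, 32231 against 3756.5 UMIs in library 1 and 21615 against 2953.5 in library 2, and it was not separated from the stage. These values carry no test.

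Runx2 went from 383 CPM at the first step to 246, 222, 154 and 156 in library 1, and from 253 to 210, 124, 112 and 106 in library 2. It was highest in cells without an osteoblast gene in both libraries. Col1a1 was higher at the third step than at the second, 58000 against 1790 CPM in library 1 and 59600 against 28500 in library 2, and Bglap was at 160 and 1260 CPM at the third step and 21600 and 12300 at the fourth. The steps were built on Bglap2, with which Bglap can share reads, so the course of Bglap is a description.

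Other transcripts were lower from the third step on. Col4a1 was at 348 and 499 CPM in the first 2 steps of library 1 and 7.39 at the third, and at 486, 145 and 5.39 in library 2. Cxcl12 was at 871, 985 and 17.3 CPM in library 1 and 719, 133 and 8.09 in library 2. Mmp9 was at 9540, 5330 and 14.8 CPM in library 1 and 1470, 3460 and 80.9 in library 2. Postn did not follow them in library 1, where it was at 34.8, 285 and 104 CPM, and was at 612, 1170 and 60.2 in library 2. In Col4a1, Cxcl12 and Mmp9 both progenitor steps lay above the third step in each library.

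**Figure D5:**
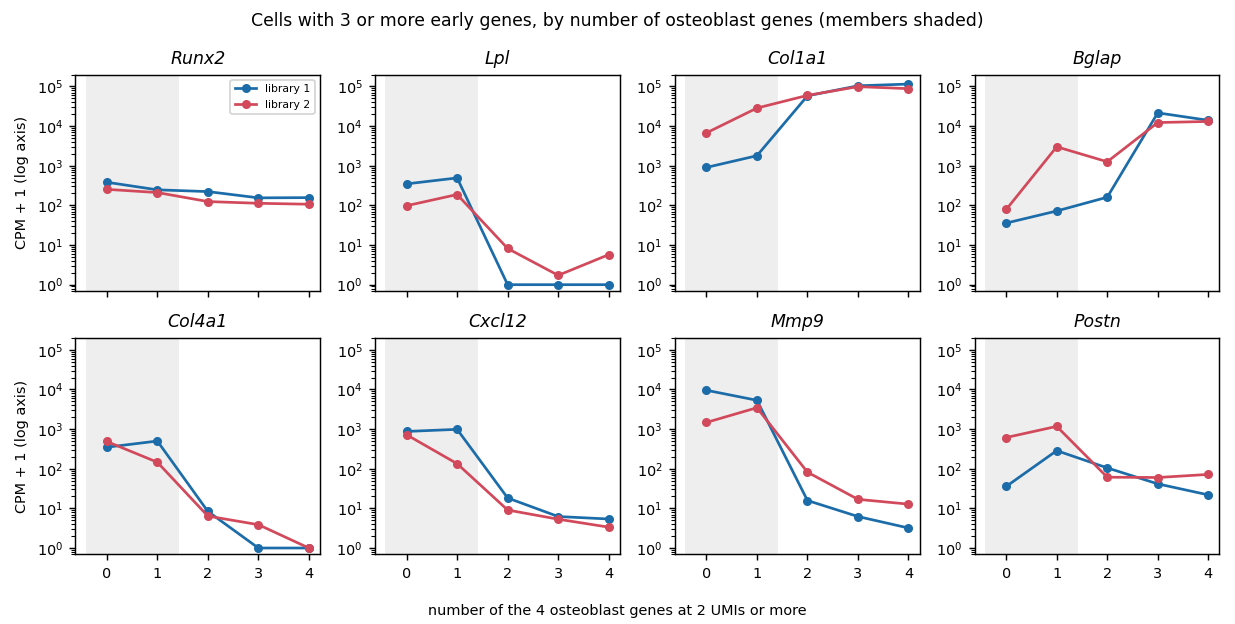
Level (CPM + 1, log axis) of 8 genes in cells with 3 or more early genes, by the number of osteoblast genes held at 2 UMIs or more (0 to 4), 1 line per library, with the progenitors shaded. Runx2 is highest at 0 osteoblast genes in both libraries, Col1a1 is lowest there, and Col4a1, Cxcl12 and Mmp9 are lower at 2 osteoblast genes than at 1.

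Against Adipoq stromal cells, the leptin receptor-type stroma of the marrow, 15 genes were higher in progenitors (0.139% of 10754) and 9 were lower (0.0837%), with a median log2 fold change of 0.12 over all genes. The stromal class held 72 cells in library 1 and only 6 in library 2, with 30256 UMIs, and the fitted values lie 0.42 above the CPM ratio. Cspg4, the NG2 proteoglycan gene of pericytes and bone cells, was at 131 and 104 CPM against no UMI. Cemip, a hyaluronan-degrading protein gene, Fat3, an atypical cadherin gene, and Thy1 also had no stromal UMI, against 104 and 81.7 CPM of Cemip, 71 and 99.9 of Fat3 and 32.8 and 63.5 of Thy1 in progenitors. In the stroma 3 counts are 4.17 CPM in library 1 and 99.2 in library 2, so library 2 had little depth to show these genes in the stroma. With both libraries pooled, Mmp9 stood at a ratio of 968 (331 to 4700 from counting) over 3 stromal UMIs and Postn at 202 (68.7 to 982) over 3, all of them in library 1. Bmp3 was at 32.8 and 25 CPM against no UMI, and Timp1, a metalloprotease inhibitor gene, was at 983 and 1600 CPM against 16.7 and 66.1.

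Esm1, at 647 and 826 CPM in the stroma and without a UMI in progenitors, was at least 136-fold lower, and Chrdl1, a BMP antagonist gene, at least 70.7-fold lower. Cxcl9, Fmo2 and Efemp1 were at least 48.8-fold, 17.8-fold and 11.4-fold lower. Cxcl12, which was higher in progenitors than in mature osteoblasts, was at 967 and 270 CPM against 12000 and 11000 here, and Lpl at 470 and 166 CPM against 3500 and 2020. Both genes helped to choose the stromal cells, so these levels are a description with no test. In a fit to the progenitors and the stroma alone no gene was called in either direction (196 and 251 at an unadjusted p under 0.05), and with the library as a block 53 were higher and 43 lower. Without the progenitors of library 2 none was called (400 and 414 at an unadjusted p under 0.05), and without those of library 1 the count of lower genes was 2. Without the progenitors rich in Gm26917, which was itself higher than in the stroma (edgeR adjusted p 0.0107), the counts were 6 and 3.

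Fibroblasts, taken as cells with at least 3 of Pi16, Dpp4, Clec3b, Mfap5, Cd34 and Ly6a, numbered 20 and 305. Against them 175 genes were higher in progenitors (1.63%) and 107 were lower (0.995%), with a median of -0.05 over all genes. The lower genes include Pi16, Dpp4 and Cd34, which chose the fibroblasts, and number 104 without them. With the library as a block the counts were 279 and 285, without the progenitors of library 1 they were 89 and 12, and without those of library 2 they were 84 and 23. Of 17 osteogenic transcription factors 4 were higher, among them Runx2, Tcf7 and Dlx5, and none was lower, with a median of 1.63.

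Runx2 was at 268 and 220 CPM against 6.01 and 3.86 (5.60 ± 0.52, edgeR adjusted p 0.000529). Cdh2, N-cadherin, was at 377 and 243 CPM against 3.0 and 2.81 (6.53 ± 0.482, edgeR adjusted p 0.000192). Runx2 and Cdh2 stayed past the threshold in every alternative run. Serpine2, a protease inhibitor gene found in 21 of 22 and 54 of 57 progenitors, was at 3810 and 2070 CPM against 141 and 167 (4.10 ± 0.477, edgeR adjusted p 0.00253). Podnl1, a leucine-rich proteoglycan gene, was at 257 and 184 CPM against 0 and 0.351, a ratio of 654 (115 to 26000 from counting). Unlike the leading genes against mature osteoblasts, Serpine2 had a UMI in nearly all progenitors, although its background share in B cells is not given here.

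Spp1 was at 34100 and 11300 CPM against 21.0 and 14.0 in fibroblasts (10.24 ± 1.59, edgeR adjusted p 0.00879), and Mmp9 stood at a ratio of 6170 (1710 to 51000 from counting) over 2 UMIs. The uncharacterized gene 9130024F11Rik and Sstr2 had no fibroblast UMI and were higher by at least 90.2-fold and by at least 71.5-fold, in that order. Signal receptors were among the called genes, with Pth1r at 175 and 570 CPM against 18.0 and 34.4, Fgfr2 at 71 and 111 against 3.0 and 6.31, and the hedgehog receptor Ptch1 at 76.5 and 132 against 6.01 and 7.36. The ligand Wnt4 was at 279 and 193 CPM against 9.01 and 3.86, and Tnfsf11 at 126 and 31.8 against 0 and 0.351, a ratio of 189 (31.9 to 7660 from counting). These were single members: of 12 hedgehog and PTH genes tested Ptch1 and Pth1r were higher and Cdon, a hedgehog co-receptor gene at 5.46 and 2.27 CPM against 102 and 118, was lower by a ratio of 36.2 (9.96 to 300.0 from counting; list median 0.24), and of 14 FGF and PDGF genes 3 were higher and none lower (median 0.11). Over all genes 1.63% were called higher than in fibroblasts and 0.995% lower. The 13 hedgehog and PTH genes summed to 513 and 960 CPM in progenitors and to 946 and 1210 in fibroblasts.

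Several genes were lower than in fibroblasts. Efemp1, a fibulin gene, had no UMI in progenitors against 105 and 102 CPM and was at least 21.3-fold lower, and the Wnt antagonist gene Sfrp2 was at least 9.73-fold lower. Serpina3n, Scg3 and Arhgap20 were at least 16.3-fold, 14.4-fold and 12.1-fold lower. Sfrp4 was at 32.8 and 63.5 CPM against 763 and 464 (-3.67 ± 0.451, edgeR adjusted p 0.00253). Thy1, higher in progenitors than in mature osteoblasts, was lower than in fibroblasts, at 32.8 and 63.5 CPM against 312 and 201 (-2.42 ± 0.519, edgeR adjusted p 0.0351). Thy1 therefore lay between the 2 classes.

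Against all other Ptprc-negative cells together, the 5153 cells that were neither progenitors nor mature osteoblasts, no gene was called higher (0%) or lower (0%) among 11403 by edgeR's quasi-likelihood test, where the smallest adjusted p was 0.0571. At an unadjusted p under 0.05 there were 1064 higher and 1328 lower genes, DESeq2 called 406 and 232, and edgeR with the library as a block called 16 and 30. This pool held 3202 cells in library 1 and 1951 in library 2, of which 94.9% and 52.0% carried hematopoietic genes, so its makeup differed between libraries. All 20 S phase genes had negative log2 fold changes (median -2.05), as did all 20 G2/M genes (median -2.20), and none of these passed the test.

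The study centered on LRP1 and CD13 (the product of Anpep) as markers of periosteal stem cells, so their genes were read in the progenitors. Lrp1, an endocytic receptor gene, was at 218 and 309 CPM against 110 and 117 in mature osteoblasts (0.62 ± 0.468, edgeR adjusted p 0.617) and 408 and 769 in fibroblasts (-1.29 ± 0.472, edgeR adjusted p 0.212), and had a UMI in 59.1% and 66.7% of progenitors. Thinned to 800 UMIs per cell, Lrp1 was found in 16.9% and 21.1% of progenitors and in 0.0654% and 0.387% of B cells, against 0.849% and 1.65% of B cells unthinned. Anpep was at 5.46 and 15.9 CPM, against 84.1 and 159 in fibroblasts (-3.47 ± 0.844, edgeR adjusted p 0.0552) and 3.31 and 7.08 in mature osteoblasts. Lrp1 was thus above the B cell background, while Anpep was close to the level that 3 UMIs stand for, 16.4 and 6.81 CPM. Prrx1, a limb mesenchyme transcription factor gene, was at 322 and 143 CPM against 136 and 68.4 in mature osteoblasts (0.55 ± 0.497, edgeR adjusted p 0.687). Pdgfra was at 81.9 and 43.1 CPM, Pdpn at 10.9 and 29.5, Nt5e at 10.9 and 18.2 and Cd164 at 98.3 and 68.1, and Pdgfra, Nt5e and Cd164 did not pass the test against mature osteoblasts (edgeR adjusted p 0.513, 0.966 and 0.521).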

How the data were processed

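The authors counted reads per gene and cell barcode and deposited raw UMI counts, with no normalization and without pooling the libraries. The processing notes name Cell Ranger 6.1.2 and mm10, while the methods text names only a human build. Everything else was computed here. Coordinates are from GENCODE on GRCm38 (mm10).

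The osteogenic progenitors were chosen by measured counts, and the members, the 29 gene lists and the tests were chosen with earlier results of these data known, so they are not independent evidence. Adipoq stromal cells held an Adipoq UMI and at least 2 of Lepr, Cxcl12, Kitl, Lpl and Hp. Chondrocytes held at least 5 Col2a1 UMIs and at least 2 of Acan, Col9a1, Col9a3, Cnmd and Matn3 at 2 UMIs or more. Both classes and the fibroblasts were taken from cells with no Ptprc UMI, in that order, after progenitors and mature osteoblasts. Mature osteoblasts had no limit on Ptprc or cartilage genes, except in a stricter alternative. No doublets were removed.

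Counts were summed per library and class (10 sums) and tested in edgeR 4.0.16 (filterByExpr, TMM, glmQLFit with the bias adjustment, glmQLFTest) under R 4.3.3, with Benjamini-Hochberg adjustment over all genes and a threshold of 0.05. A second fit over progenitors, mature osteoblasts and all other Ptprc-negative cells served the last comparison. SE values are the log2 fold change divided by the square root of F. DESeq2 1.42.0 was an alternative. The steps were tested on simulated data with the observed dispersion. Simulated log2 changes of 2 were called in 16.2% of cases against mature osteoblasts, 12.9% against stroma, 14.9% against fibroblasts and 5.41% against other cells. For log2 changes of 4 the shares were 71%, 66%, 66.3% and 54.2%. A gene that was not called may therefore still differ. Cell totals run from 872 to 36761 UMIs in progenitors, so levels rest on 183085 and 440645 UMIs. Where a class had no UMI, a bound was computed at 3 counts over both libraries of the class together, and a ratio over 1 to 3 UMIs was given with an exact counting interval.

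The named genes are the selection genes, members of the lists, the study's own markers, and the genes with the greatest called differences at 20 CPM or more in both libraries of the higher class (10 per direction against mature osteoblasts, 5 against stroma and fibroblasts). Postn, Bmp3 and Timp1 against stroma, Gm26917, Serpine2, Fabp5, Aspn, Igfbp5, Col8a1 and Col3a1 within progenitors, and the limits on Mmp9, Cxcl12 and Postn, were chosen after values were seen. Some genes are not reported here. Sums with the same number come from the same library, so the numbers pair them: deviations from the class means correlated at 0.136 to 0.454 over 10768 genes in all 10 pairs of classes.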

Additional observations from a re-analysis of the deposited data

Results flagged for a closer look

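EGFP was counted in library 2 although the labels give WT mice, and it lies outside every comparison. It had 68 UMIs in 4 osteogenic progenitors of library 2, 43 of them in 1 cell, against 15 UMIs in 5 of 1333 B cells of that library and 0 in library 1. In the same library chondrocytes held 5123 UMIs in 90 of 277 cells (876 CPM), mature osteoblasts 935 in 27 cells (441 CPM) and fibroblasts 27 in 12 cells.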

How the results depend on the processing

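The counts of called genes moved with most choices, while directions mostly held: over 139 named comparisons (124 past the threshold) and 18 alternatives, 1951 values kept their side of the threshold and direction, 432 lost the call, 27 gained it and 14 changed sign. Those against mature osteoblasts are given as higher and lower. With the library as a replicate block they were 308 and 204. No filter on low counts gave 90 lower genes, DESeq2 79, edgeR without its bias adjustment 85, and a fit to the compared classes alone 88. Leaving out progenitors with an osteoblast gene at 2 UMIs gave 95 lower. Leaving out those with marrow stromal genes gave 80 and 18, with hematopoietic genes 78 and 9, with 10 or more Mmp9 UMIs 85 and 14, cells under 5000 UMIs 104 and 26, and thinning every cell to 800 UMIs 42 and 15, where 1662 genes were tested. Without a progenitor replicate they ranged from 48 to 91 and from 0 to 35.

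Against Adipoq stromal cells the counts were 68 and 49 without a filter, 88 and 51 by DESeq2, 38 and 31 without the bias adjustment, 53 and 43 with the replicate block, 3 and 0 without progenitors with an osteoblast gene, 30 and 33 without marrow stromal genes, 1 and 0 without cells under 5000 UMIs, 0 and 0 in a fit to the compared classes, 2 and 0 without the Mmp9 group, and 6 and 3 without progenitors with 100 or more Gm26917 UMIs. Leaving out hematopoietic carriers gave 7 higher, and thinning gave 20 lower. Without a progenitor replicate they ranged from 0 to 19 and from 0 to 2. Against fibroblasts they were 279 and 285 with the replicate block, 51 and 10 without progenitors with an osteoblast gene, 97 and 50 without shallow cells, and 63 and 54 thinned. Lower genes were 210 without a filter, 194 without the bias adjustment, 171 at 4 early genes, 55 without hematopoietic carriers and 60 without the Mmp9 group. Without a progenitor replicate they ranged from 84 to 89 and from 12 to 23.

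Against other Ptprc-negative cells DESeq2 called 406 and 232, the replicate block 16 and 30, thinning 49 and 30, and edgeR without the bias adjustment, 4 early genes and a stricter osteoblast class 1 higher gene each. The share of progenitors in library 1 was 0.0956% without an osteoblast gene, 0.127% without hematopoietic carriers and 0.542% at 2 early genes. In library 2 it was 1.14% at 4 early genes, 0.691% without an osteoblast gene, 3.28% at 2 early genes and 1.44% at 5% mitochondrial UMIs.

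Reversed values were these log2 fold changes, none past the threshold. With no osteoblast gene at 2 UMIs (26 progenitors) against mature osteoblasts they were Smoc1 -2.14, Ltbp2 -2.11, Tnfsf11 -4.41, Spp1 -3.21, Prrx1 -0.10 and Anpep -0.39, and Tnfsf11 -2.17 against fibroblasts. Smoc1, Ltbp2 and Tnfsf11 had 0 UMIs in these 26 progenitors and Anpep 1, so their values are fitted ones and measure no lower level. For the others the cause was not tested. Without hematopoietic carriers they were Spp1 -0.53, Dlx5 -0.19 and Prrx1 -0.41. Without a progenitor replicate they ranged from -0.62 to 0.83 for Spp1, -0.32 to 1.22 for Dlx5, -0.08 to 0.94 for Prrx1 and -0.67 to 1.01 for Anpep. Over all alternatives the adjusted p ran from 1.31e-07 to 0.202 for Mmp9, 0.00038 to 0.337 for Gal, 0.0003 to 0.118 for Phex, 3.19e-08 to 0.134 for Car3, 3.25e-06 to 0.229 for Igfbp4, and 0.0426 to 0.803 for Col1a1 against mature osteoblasts (edgeR or DESeq2). In the replicate block no named gene lost its call and 6 gained it, among them Bglap, which can share reads with Bglap2, and Lpl and Cxcl12 against the stroma that both helped to choose. Thinning, leaving out the Mmp9 group, leaving out progenitors rich in Gm26917 and leaving out the progenitor with most Bglap2 were alternatives chosen after seeing the data. With 79 cells in 2 libraries, genes of a few UMIs cannot be resolved.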

Other observations

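A second reporter sequence, tdTomato, was counted in both libraries. It had 5 UMIs in 4 of 22 osteogenic progenitors of library 1 and 47 in 14 of 57 of library 2, which is 27.3 and 107 CPM. B cells stood at 20.6 and 45.5 CPM, with a UMI in 15.4% and 20.4% of cells, and mature osteoblasts at 63.4 and 217 CPM. Fibroblasts stood at 9.01 CPM in library 1 and 503 in library 2, where 38.4% of cells held a UMI.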
